A study of Homo sapiens with 4 samples.

Results

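The genes examined here encode the kinase module of Mediator: the kinase CDK8, its paralog CDK19, their cyclin partner CCNC (cyclin C), the subunits MED12 and MED13, and the MED13 paralog MED13L. CDK8 peaks were taken in 6 windows, 1 per gene, each holding the gene and about 20 kb on either side in GRCh37/hg19. The windows span 1093 kb in all. They held 24 of the 56111 listed CDK8 peaks, which joined into 12 of 28150 regions, and 5 of the 6 genes had at least 1 peak in some library. The rule used the positions of the genes and no value of the peaks.

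The cells were HCT116, an established colorectal cancer line, and CDK8 was mapped by chromatin immunoprecipitation and sequencing (ChIP-seq). There was 1 CDK8 library from cells kept in normoxia for 24 h, for which the labels give no oxygen level, and there were 2 from cells held for 24 h at 1% oxygen (labelled replicates 1 and 2 and called hypoxia library 1 and hypoxia library 2 here). All 3 used the same antibody lot. An input library also belongs to the series and was not analysed here. The labels do not state whether the hypoxia libraries come from separate cultures, and the deposited lists are named as merged without naming what was merged.

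The kinase module is a detachable part of Mediator, the complex that carries signals from transcription factors to RNA polymerase II. Cyclin C activates the kinase, MED12 stimulates it through cyclin C, and MED13 or MED13L joins the module to the rest of Mediator. CDK8 and CDK19 are alternative kinases of the module, as MED13 and MED13L are alternative linkers. CDK8 is known as an oncogene in colorectal cancer and as a coactivator of the hypoxia-inducible factor HIF1A. Peaks of CDK8 at these genes are therefore peaks of a protein at the genes that encode it and its partners.

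The lists differed as a whole. They held 19862 peaks in normoxia, 21993 in hypoxia library 1 and 14256 in hypoxia library 2. Hypoxia library 1 stood apart: 122 of its peaks lay on chromosome Y, where the others had 0, and its peaks began at a width of 181 bp, while those of normoxia began at 226 bp and those of hypoxia library 2 at 225 bp. Results that rest on it are given below by library, so that they can be read with and without it. The lists carry no read counts, so read depth is unknown, and a peak missing from a list may have fallen just under its threshold. Each peak has a score set by the authors on a scale that is not stated. It is used here as a percentile within its own list, where 100 is the best peak. With 1 library against 2, an exact permutation of labels could not go below p = 0.333, so conditions were compared without a test, beside the gap between the hypoxia libraries.

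Each window implies where its gene starts, since the flank is about 20 kb; this position is good to roughly 1 kb, and a peak within 1 kb of it is called here a peak at the 5′ end. Only MED13 was not matched in the RefSeq promoter table, and its strand (minus) was taken from general knowledge. The 250 bases before the outermost annotated start of the other 5 genes are shown first, because the libraries divided these genes into those with a peak at the 5′ end and those without. The first 3 sequences belong to genes with such a peak and the last 2 to genes with none. They are RefSeq sequences of GRCh38.p14, given 5′ to 3′ in the direction of transcription. Capitals mark ACGTG (the core of the HIF motif), GGGCGG (the GC box) and CCAAT on either strand.
MED13L, chr12:116277694-116277943, minus strand: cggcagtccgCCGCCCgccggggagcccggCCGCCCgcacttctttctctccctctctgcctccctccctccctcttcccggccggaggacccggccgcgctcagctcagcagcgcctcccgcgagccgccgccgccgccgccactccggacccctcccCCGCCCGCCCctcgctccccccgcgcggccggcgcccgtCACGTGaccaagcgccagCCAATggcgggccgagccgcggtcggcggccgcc
CDK19, chr6:110815856-110816105, minus strand: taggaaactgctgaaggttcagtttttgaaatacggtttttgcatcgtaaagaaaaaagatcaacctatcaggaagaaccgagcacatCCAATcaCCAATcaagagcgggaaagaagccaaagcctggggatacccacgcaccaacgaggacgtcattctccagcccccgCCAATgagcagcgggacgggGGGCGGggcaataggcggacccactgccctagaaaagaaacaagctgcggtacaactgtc
CCNC, chr6:99568815-99569064, minus strand: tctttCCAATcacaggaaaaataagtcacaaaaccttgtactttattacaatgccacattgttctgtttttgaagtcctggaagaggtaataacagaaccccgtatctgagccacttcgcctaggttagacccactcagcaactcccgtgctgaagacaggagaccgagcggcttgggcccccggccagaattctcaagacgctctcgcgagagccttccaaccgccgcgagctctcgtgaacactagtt
CDK8, chr13:26253879-26254128, plus strand: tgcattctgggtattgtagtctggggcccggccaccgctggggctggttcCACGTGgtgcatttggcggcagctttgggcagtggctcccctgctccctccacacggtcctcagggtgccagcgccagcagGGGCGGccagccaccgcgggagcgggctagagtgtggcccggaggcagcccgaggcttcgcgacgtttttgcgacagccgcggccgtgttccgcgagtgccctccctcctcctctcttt
MED12, chrX:71118346-71118595, plus strand: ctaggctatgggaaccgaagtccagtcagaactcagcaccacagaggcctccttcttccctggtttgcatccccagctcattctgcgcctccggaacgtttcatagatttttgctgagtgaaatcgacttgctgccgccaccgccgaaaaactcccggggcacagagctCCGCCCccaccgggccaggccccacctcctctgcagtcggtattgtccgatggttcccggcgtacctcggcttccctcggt

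The MED13L sequence was the richest in G and C, at 81.2%, with 40 CG dinucleotides. CDK8 followed with 68.8% and 21, then MED12 with 60.4% and 17. CDK19 had 52.0% and 13, and CCNC 50.4% and 13. The medians over the 35116 promoter entries of the table were 58.0% and 11. Among the sequences shown, base composition did not separate the genes with a 5′ peak from those without. The genes with a 5′ peak held both the highest and the lowest value. ACGTG was found in MED13L and in CDK8, in each as 1 palindromic CACGTG that reads as ACGTG on both strands, 52 and 200 bases before the start. The motif ACGTG was in 18.5% of entries. The GC box was found 4 times in MED13L, where 2 copies overlap, and once each in CDK19, CDK8 and MED12 (42.6% of entries). CCAAT was found 3 times in CDK19 and once each in MED13L and CCNC (32.0% of entries). The CCNC match lay 245 bases before the start. Among the sequences shown these are the genes with a 5′ peak, while MED13, which also has one, has no sequence here. The motifs were chosen with the sequences in view, and this division was not tested. A match describes the letters alone. The sequences come from another build than the peaks and were not placed in hg19, so whether a peak covers them was not tested.

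CDK8 peaks lay at the 5′ ends of MED13L, MED13, CDK19 and CCNC, and at neither of those of CDK8 and MED12. Normoxia and hypoxia library 2 each listed a peak at all 4 of these 5′ ends, and hypoxia library 1 at 3, all but CDK19. Of the 12 regions, 6 were at a 5′ end, 5 inside a gene and 1 in a flank beyond the 3′ end. The share of all regions of the series that lie at a 5′ end was not computed, for want of an hg19 annotation. These counts therefore have no background beside them, and whether the placement is particular to these genes was not tested. Beyond 1 kb of the implied 5′ end, the inside of the genes was occupied in MED13L and CDK8 alone.

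**Figure D1:**
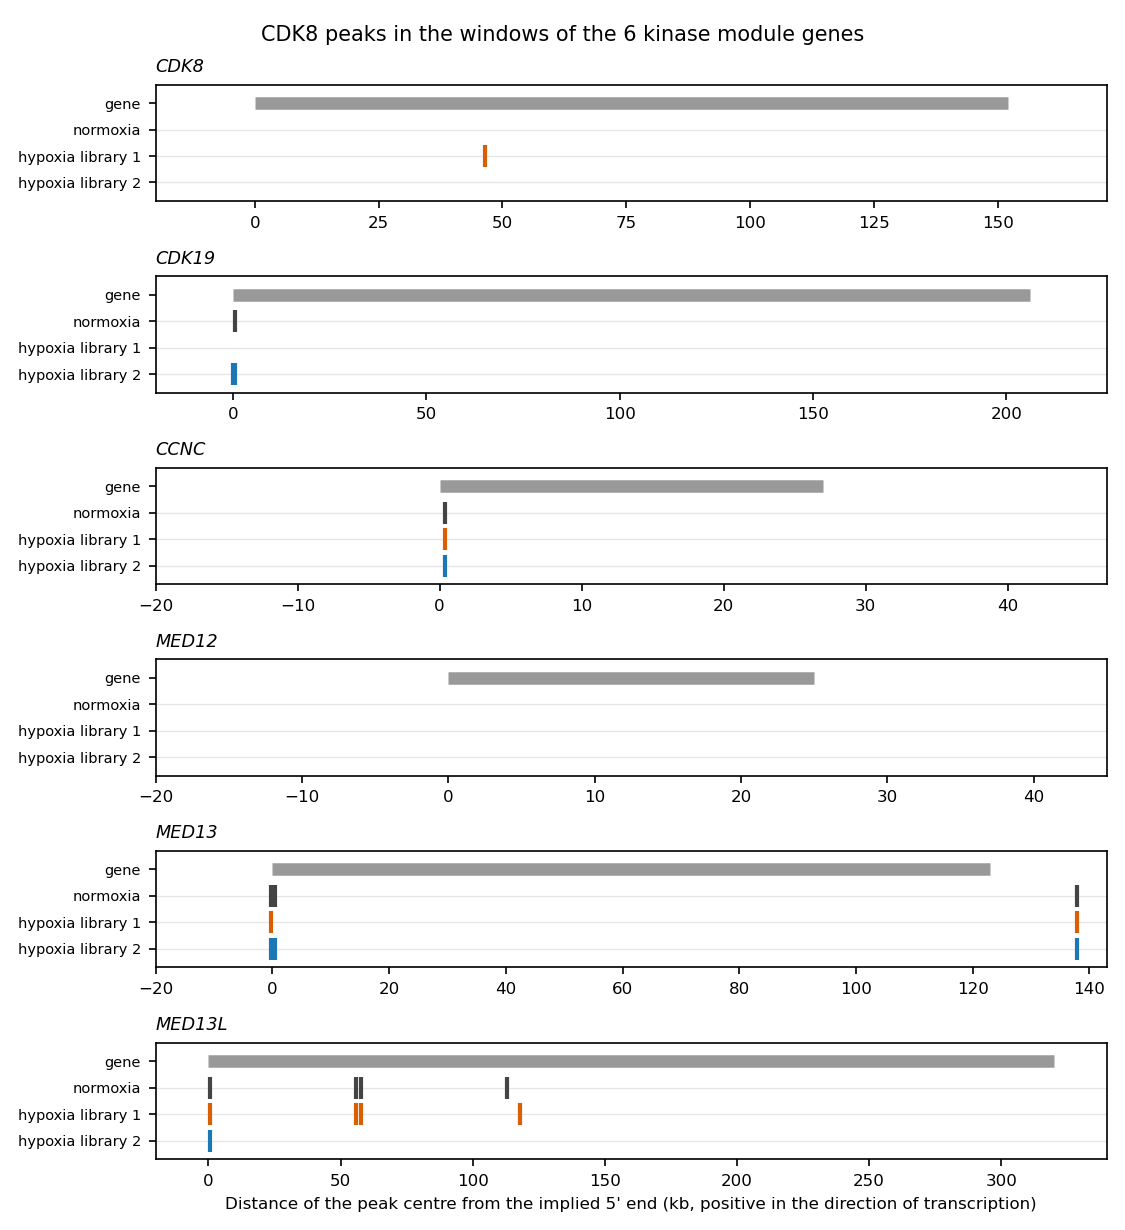
CDK8 peaks along the 6 windows, with a tick at the centre of each listed peak (horizontal axis in kb from the implied 5′ end, 1 row per library) and the implied gene as a grey bar. Ticks gather at the 5′ ends of CDK19, CCNC, MED13 and MED13L, the MED12 panel is empty, and the CDK8 panel holds 1 tick, from hypoxia library 1.

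The kinases come first. In the CDK8 window, from 26808 to 27000 kb on chromosome 13, normoxia listed 0 peaks, hypoxia library 1 listed 1 and hypoxia library 2 listed 0. That peak spanned 246 bp (chr13:26874333-26874578), about 46.5 kb into the gene, with a score of 22.73 at percentile 61.0 of its list. CDK8 was therefore not listed at the start of its own gene in any library, and the 1 peak inside the gene was not repeated by the other hypoxia library. At the density of chromosome 13 the window would hold 0.710 peaks in normoxia, 0.698 in hypoxia library 1 and 0.500 in hypoxia library 2. The listed counts cannot be told apart from that density. The nearest peak to the implied start was the same in all 3 libraries, 31.4 kb before it and outside the window (chr13:26796157-26796623 in normoxia). It had percentiles of 68.9 in normoxia, 90.0 in hypoxia library 1 and 72.9 in hypoxia library 2. The next protein-coding gene on that side in RefSeq is RNF6, a ubiquitin ligase gene.

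CDK19, which encodes the alternative kinase, had its peaks at the 5′ end. A region of 371 bp (chr6:111136367-111136737) was listed in normoxia at percentile 54.5 and in hypoxia library 2 at 68.7, and was missing from hypoxia library 1. Hypoxia library 2 added a second peak of 273 bp (chr6:111136809-111137081), 71 bp away, at percentile 22.5. The nearest peak of hypoxia library 1 was 58.7 kb from the implied start. The hypoxia libraries thus disagreed at CDK19 on presence itself, with normoxia on the side of hypoxia library 2. Outside the window, the peak 58.7 kb from the implied start was listed by every library. Its percentiles were 92.0 in normoxia, 91.1 in hypoxia library 1 and 88.8 in hypoxia library 2. RefSeq lists AMD1, the gene of a polyamine synthesis enzyme, as overlapping CDK19. The place of the overlap was not located in hg19, so the peaks at the 5′ end cannot be assigned to either gene.

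CCNC, the cyclin gene, had 1 peak in each library, again at the 5′ end (chr6:100016393-100016833, 441 bp). Its width was 441 bp in normoxia, 385 bp in hypoxia library 1 and 335 bp in hypoxia library 2. The centres of the 3 peaks lay within 56 bp of one another. Their scores ranked very differently, at percentile 44.2 in normoxia, 92.9 in hypoxia library 1 and 12.9 in hypoxia library 2. Position was shared and rank was not. The gap of 80.0 percentile points between the hypoxia libraries exceeded that of 99.3% of the regions listed in all 3 libraries, whose median gap was 17.6 points; the region was singled out after its values were seen. Normoxia fell between the hypoxia libraries, so no difference between conditions stood beyond their gap. With lists cut to equal length its percentiles were 22.2, 89.0 and 12.9, in the same order.

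MED12, whose product activates the kinase through cyclin C, had no listed peak in its window of 65.0 kb (70318 to 70383 kb on chromosome X) in any library. Chromosome X is thinly occupied: normoxia listed 2.26 peaks per Mb of it, hypoxia library 1 listed 2.55 and hypoxia library 2 listed 1.66. Over 65.0 kb these densities come to 0.147, 0.166 and 0.108 peaks. The nearest peak to the implied start was 49.4 kb before it in each library (from chrX:70287963 in normoxia), at percentiles of 96.8, 93.0 and 81.2 in normoxia, hypoxia library 1 and hypoxia library 2. The absence at MED12 was the same in every library, and at these densities it cannot be told apart from the background of chromosome X. High-ranked peaks were listed outside its window.

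MED13, which links the module to Mediator, had 3 peaks in normoxia, 2 in hypoxia library 1 and 3 in hypoxia library 2. At the density of chromosome 17 in each list, its window would hold 2.72, 2.91 and 1.98. At the 5′ end of MED13 a region of 628 bp (chr17:60142899-60143526) was listed by all 3, at percentiles of 24.5 in normoxia, 43.0 in hypoxia library 1 and 4.50 in hypoxia library 2. All of these lie in the lower part of their lists, and normoxia again fell between the hypoxia libraries. A second region of 318 bp, 280 bp further into the gene (chr17:60142301-60142618), ranked higher, at 68.1 in normoxia and 80.4 in hypoxia library 2, and was not listed in hypoxia library 1. The 5′ end of MED13 therefore carried a pair of peaks in normoxia and in hypoxia library 2, and a single one in hypoxia library 1.

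The third MED13 region lay beyond the gene, 14.9 kb past its implied 3′ end (chr17:60004829-60005350, 522 bp). All 3 libraries listed it, at percentiles of 64.6 in normoxia, 52.9 in hypoxia library 1 and 77.1 in hypoxia library 2. The next protein-coding gene on that side in RefSeq is INTS2, which encodes a subunit of the Integrator complex and starts on the side facing MED13. This region is in the window through its flank, and without the flanks MED13 has 2 regions.

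MED13L, the paralog of MED13, held the most regions, 5 in a window of 360 kb, the longest of the windows. It had 4 peaks in normoxia, 4 in hypoxia library 1 and 1 in hypoxia library 2. At the density of chromosome 12 in each list, a window of this length would hold 3.03, 3.29 and 2.11. The region at the 5′ end of MED13L spanned 777 bp (chr12:116715188-116715964). It was among the better peaks of normoxia, at percentile 92.1, and of hypoxia library 2, at 90.1, and stood at 49.4 in hypoxia library 1. The listed peak was 743 bp wide in normoxia, 751 bp in hypoxia library 2 and 357 bp in hypoxia library 1. The median width of the whole list was 379 bp, 352 bp and 295 bp in the same order, so peaks of hypoxia library 1 were narrower throughout. Ranked by width within its own list, the peak stood at percentile 89.5, 93.7 and 66.1 in that order. Normoxia and hypoxia library 2 shared 92.3% of the length that either covered, against 48.0% for normoxia with hypoxia library 1 and 47.5% for the hypoxia libraries. Normoxia and hypoxia library 2 were nearly alike here, and the difference lay within hypoxia.

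Inside MED13L the pairing was the other way. Regions about 55.7 and 57.7 kb into the gene (chr12:116660218-116660458 and chr12:116658157-116658443) were listed in normoxia, at percentiles of 45.1 and 63.2, and in hypoxia library 1, at 32.2 and 54.9. Hypoxia library 2 listed neither. Further in, normoxia alone listed a peak at 113.1 kb (chr12:116602750-116602995, percentile 20.8), and hypoxia library 1 alone listed one at 117.8 kb (chr12:116598010-116598350, percentile 39.4). The last 2 are 4399 bp apart and do not overlap. Beyond 1 kb of a 5′ end, no peak inside a gene was listed by all 3 libraries or by hypoxia library 2. The 7 peaks of hypoxia library 2 were 6 at 5′ ends and 1 in the flank of MED13. Its list is the shortest of the 3. The share of its peaks at 5′ ends over the whole list was not computed, so this split has no background beside it.

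**Figure D2:**
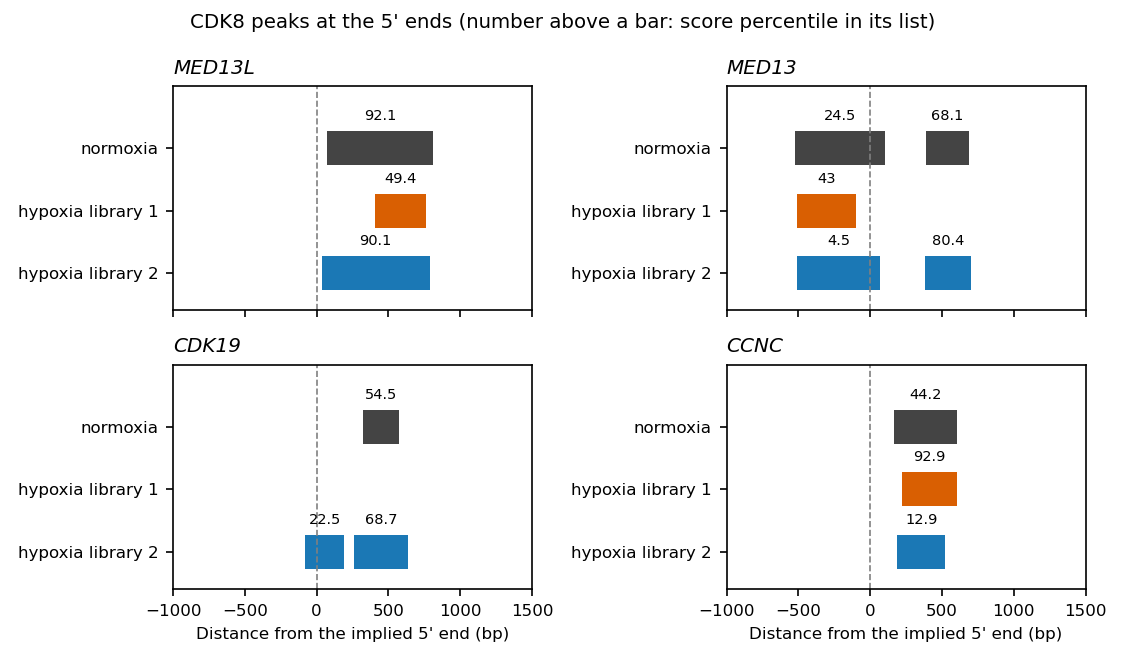
Listed CDK8 peaks at the 5′ ends of MED13L, MED13, CDK19 and CCNC, drawn to scale (horizontal axis in bp from the implied 5′ end, which is rounded to 1 kb; 1 row per library), with the score percentile above each bar. CCNC peaks coincide in place while their percentiles run from 12.9 to 92.9, and hypoxia library 1 lacks the CDK19 peaks and the second MED13 peak.

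By the best peak at each 5′ end, normoxia ranked MED13L first at 92.1, then MED13 at 68.1, CDK19 at 54.5 and CCNC at 44.2. Hypoxia library 2 had the same order, at 90.1, 80.4, 68.7 and 12.9. Hypoxia library 1 put CCNC first at 92.9, before MED13L at 49.4 and MED13 at 43.0, with CDK19 not listed. This order was looked at after the values were seen and rests on 4 genes. MED13L thus came first and CCNC last in 2 of 3 libraries, and CCNC came first in the other.

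**Figure D3:**
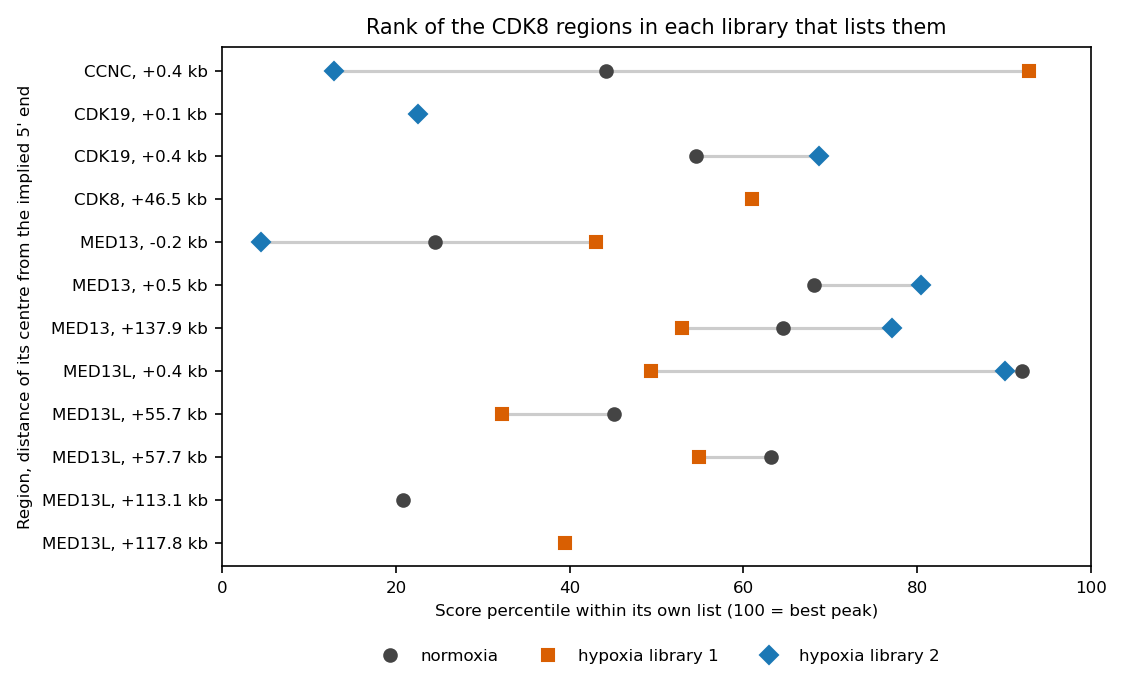
Score percentile of each of the 12 regions in every library that lists it (horizontal axis, 100 is the best peak of that list; regions named by gene and distance from the implied 5′ end; a line joins the values of a region). The squares of hypoxia library 1 lie to the left of the other libraries at MED13L and at the right end at CCNC.

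The division of the 12 regions among libraries is set beside that of all 28150 regions of the series. Regions in all 3 libraries numbered 4 (33.3%, Wilson 95% interval 13.8 to 60.9), against 33.0% of all regions, so sharing at these genes was near the background. With the better-scoring 50% of each list the share was 1 of 7 (14.3%), against 28.4% of all regions. With the full lists, the 4 regions in all 3 libraries were the CCNC and MED13L 5′ ends, the upstream MED13 5′ region and the region in the MED13 flank. Normoxia and hypoxia library 1 shared 2 regions (background 15.9%), both inside MED13L. Normoxia and hypoxia library 2 shared 2 (background 6.65%), at the 5′ ends of CDK19 and MED13. Normoxia alone had 1 (background 13.2%), hypoxia library 1 alone had 2 (background 22.6%) and hypoxia library 2 alone had 1 (background 5.46%).

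A peak gained under hypoxia would be listed by each hypoxia library and lacking in normoxia. At these genes there were 0 of 12 such regions, and the background of 3.18% comes to 0.381 of 12 regions, so the count of 0 cannot be told apart from the background. Of the 4 regions in all 3 libraries, normoxia ranked between the hypoxia libraries in 3 (background 41.7%), and at the MED13L 5′ end it was above both. That excess of normoxia over hypoxia library 2 was small beside the 40.7 points between the hypoxia libraries. In presence, normoxia differed from both hypoxia libraries at 1 of the 12 regions, the peak 113.1 kb into MED13L at percentile 20.8 of the normoxia list, which neither hypoxia library listed. With lists cut to equal length, 1 region at the 5′ end of MED13 was listed by each hypoxia library and lacking in normoxia. The full normoxia list holds it at percentile 24.5, too low to stay in the shortened list. The list of hypoxia library 2, which holds it at 4.50, is not shortened by this cut. The share of all regions with this pattern was not computed for the cut lists.

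In density, the windows held 8.23 peaks per Mb in normoxia (exact 95% Poisson interval 3.77 to 15.6), 7.32 in hypoxia library 1 (3.16 to 14.4) and 6.40 in hypoxia library 2 (2.57 to 13.2). All chromosomes but Y held 6.77, 7.45 and 4.86 peaks per Mb, each within the interval. The peaks covered 0.314% of the windows in normoxia, 0.243% in hypoxia library 1 and 0.266% in hypoxia library 2, against 0.313%, 0.274% and 0.203% of all chromosomes but Y. The median percentile of the window peaks was 54.5 in normoxia, 51.2 in hypoxia library 1 and 68.7 in hypoxia library 2, where the middle of a list is 50. Peak number at the module genes was thus not distinguishable from that of the lists as a whole at these counts. The intervals cover counting error only.

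**Figure D4:**
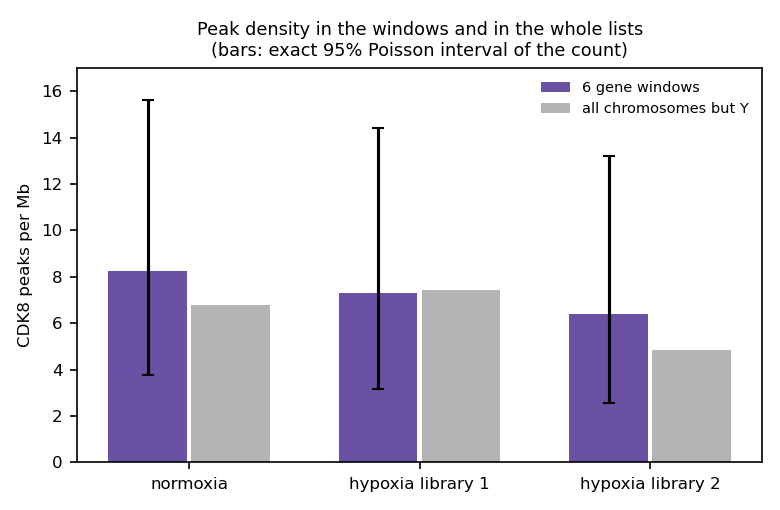
CDK8 peaks per Mb in the 6 windows together (purple, error bars are exact 95% Poisson intervals) and in all chromosomes but Y (grey), for each library. Each grey bar lies inside the interval of its purple neighbour, for example 6.77 against 3.77 to 15.6 in normoxia.

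Just outside the windows, CCNC had the closest listed peak, 0.846 kb below the edge in normoxia (percentile 48.9) and 0.899 kb below it in hypoxia library 1 (80.0). Hypoxia library 2 had none within 564.4 kb on that side. The CDK8 window followed, with the peak 11.4 kb below its edge in all 3 libraries. At the other windows no peak lay within 29 kb of an edge. A window 1 kb longer would thus have added the peak below CCNC. The next protein-coding gene on that side in RefSeq is USP45, and the distance from the peak to USP45 was not measured. Inside, the region closest to an edge was the one in the flank of MED13.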

How the data were processed

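CDK8 ChIP-seq peak lists of 3 HCT116 libraries were used, 1 from normoxia and 2 from hypoxia. MACS2 2.0.9, Bowtie 0.12.7, CASAVA 1.8.2 and FastQC, with the build GRCh37/hg19, are named per the submitters' processing notes. What each did, with which settings and peak threshold, is not given in the sources used here. Each score deposited by the authors with a peak has no stated scale and was ranked within its list only. Starts count from 0 in the lists and from 1 here. Peaks overlapping a window by at least 1 bp were taken, and peaks of the 3 lists that overlap or touch were joined into regions over the whole genome, a step tested on simulated lists. The 6 genes were given; every region in their windows is counted and described. Densities divide by chromosome spans between the outermost peaks of the 3 lists. Genes, windows and lists were chosen with earlier results of these data known, and motifs with the sequences in view. Other Mediator subunits were not analysed here, for want of an hg19 annotation. Neighbouring genes and promoter sequences come from RefSeq GRCh38.p14, by symbol (5 of 6 genes matched for promoters), and no coordinate was converted. Alternatives tried were windows without flanks, lists cut to their top 50% by score, lists cut to one length, other joining rules and leaving out either hypoxia library. Python 3.11.15, numpy 2.4.6, pandas 2.3.3, scipy 1.17.1 and matplotlib 3.10.9 were used.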

Additional observations from a re-analysis of the deposited data

How the results depend on the processing

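With the better-scoring 50% of each list, the windows kept 5 peaks in normoxia, 4 in hypoxia library 1 and 4 in hypoxia library 2 (4.57, 3.66 and 3.66 per Mb). They then made 7 regions, with 1 in all 3 libraries (14.3%, against 28.4% of all regions under this setting), the flank of MED13, and 0 in normoxia alone, and hypoxia library 1 had 1 gene with a 5′ peak, CCNC; fewer peaks bring fewer regions by construction. With equal list sizes (14256 peaks each), 1 region was held by the hypoxia libraries and lacking in normoxia, at the 5′ end of MED13, because the normoxia peak there ranks too low for the shortened list. The share of all regions with that pattern was not computed for this setting. Cutting the longer lists also lowers percentiles by construction: best peaks moved from 52.9 to 27.4 for MED13, 54.9 to 30.5 for MED13L and 61.0 to 39.9 for CDK8 in hypoxia library 1, and from 44.2 to 22.2 for CCNC and 54.5 to 36.7 for CDK19 in normoxia. Leaving out hypoxia library 1 gave 10 regions, with 1 in hypoxia and not in normoxia and 3 the other way. Leaving out hypoxia library 2 gave 11 regions, with 2 in hypoxia and not in normoxia and 3 the other way. The shares of all regions under these settings were not computed, so the counts have no background beside them. Some peak was at the 5′ end of the same number of genes, 4, in each alternative run for that count. The other joining rules remove no peak, so they could not lower it. In hypoxia library 1 by itself the number fell from 3 to 2 without the flanks, since its MED13 peak lies before the implied start. With an overlap of 50% of both peaks, the MED13L 5′ region no longer held hypoxia library 1, which left 3 of 13 regions in all 3 libraries (23.1%, against 22.4% of all regions under this rule). With equal list sizes 3 of 11 were (27.3%, against 33.4%). No paired analysis was possible because normoxia has 1 library and shares fewer than 2 replicate numbers with hypoxia. Depth is unknown, so a missing peak cannot be told apart from one under the threshold.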
